A study of Mus musculus with 12 samples.

Results

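The AP-1 transcription factor genes are described here in the kidneys of mice with rhabdomyolysis-induced acute kidney injury (RIAKI) and of control mice. They are the genes that encode FOS proteins (Fos, Fosb, Fosl1, Fosl2), JUN proteins (Jun, Junb, Jund), ATF3 (Atf3) and small MAF proteins (Maff, Mafk). They were taken from the deposited tables by a list of names, 10 of the 41740 genes there, and all 10 names were found. The list was drawn up with earlier results of these data known. The values are numbers of deduplicated reads over exons in 12 kidney libraries, 6 from RIAKI mice and 6 from control mice, with 1 library per mouse. All mice were male wild-type C57BL/6NCrl whose age was not given in the sources used here. Drinking water was withheld for 19 h in both groups, which then received, under isoflurane, an injection into the left hind limb of 50% glycerol (RIAKI, 0.05 ml for each 10 g of weight) or of saline (controls). Both groups also received carprofen at 5 mg/kg at 0 h and 3 h, and kidneys were taken at 24 h. As a model, RIAKI was thus sampled at a single time point, in whole kidneys and in 1 sex, and water restriction, anesthesia and carprofen were shared by the controls.

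AP-1 is a dimer of basic leucine zipper (bZIP) proteins that binds short palindromic DNA elements and switches genes for stress responses, proliferation and tissue remodeling. FOS proteins do not pair with themselves and need a JUN partner, whereas JUN proteins pair with FOS, ATF and other JUN proteins, and small MAF proteins pair with NRF2 or BACH1 and lack an activation domain of their own. Many of these genes are immediate early genes, whose transcripts rise quickly after a stimulus and decay quickly, and several are known to be induced in the injured kidney.

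Total exon counts per library ran from 1579157 to 1911871 in RIAKI and from 1673329 to 2073959 in controls, of which mitochondrial ribosomal RNA took 34.1% to 58.9% and 36.6% to 52.7%. Without it, 648268 to 1145627 counts were left in RIAKI and 808365 to 1315209 in controls. RIAKI replicate 1 stood apart in having the lowest share of mitochondrial ribosomal RNA, the most genes with a count (14800) and the highest share of intron reads (6.69%, against 3.83% in the lowest RIAKI library). Levels are given as CPM, counts scaled by TMM (edgeR's trimmed mean of M values) to a common library size. Kidney markers checked the tissue: none of 12 was absent, and their summed level was 7778 to 12621 CPM in controls and 2995 to 6675 CPM in RIAKI. Most of these sums came from Kap alone, with a mean of 8526 CPM in controls and 4629 CPM in RIAKI. By the test used below, 10 markers were lower and 1, Nphs1, was higher (log2 fold change 2.10, SE 0.20). Of all tested genes, 18.8% were lower and 17.4% higher. In whole tissue, fewer cells of a type and less RNA per cell cannot be told apart.

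The promoters of 1 gene from each branch of the family are shown, because these genes are themselves known to carry the DNA elements that AP-1 and CREB/ATF proteins bind. The sequences are the 250 bases upstream of the RefSeq transcript start (GRCm38.p6) in the direction of transcription, at chr12:85473640-85473889 (plus strand, Fos), chr4:95052223-95052472 (minus strand, Jun), chr1:191183334-191183583 (minus strand, Atf3) and chr15:79347270-79347519 (plus strand, the second of 3 Maff starts). Capitals mark matches, on either strand, to TGACNTCA, a loose pattern of the cAMP response element (CRE) with any base at N, or to the short form TGACG.
Fos: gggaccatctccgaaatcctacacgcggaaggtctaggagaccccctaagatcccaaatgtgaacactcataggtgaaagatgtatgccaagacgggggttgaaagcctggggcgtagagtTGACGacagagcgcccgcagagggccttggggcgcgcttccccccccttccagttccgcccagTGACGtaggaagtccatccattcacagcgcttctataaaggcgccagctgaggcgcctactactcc
Jun: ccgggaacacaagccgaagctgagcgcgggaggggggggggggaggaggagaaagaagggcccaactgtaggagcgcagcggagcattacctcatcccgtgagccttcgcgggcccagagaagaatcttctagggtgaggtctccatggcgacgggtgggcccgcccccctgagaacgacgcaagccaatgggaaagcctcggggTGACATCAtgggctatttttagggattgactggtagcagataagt
Atf3: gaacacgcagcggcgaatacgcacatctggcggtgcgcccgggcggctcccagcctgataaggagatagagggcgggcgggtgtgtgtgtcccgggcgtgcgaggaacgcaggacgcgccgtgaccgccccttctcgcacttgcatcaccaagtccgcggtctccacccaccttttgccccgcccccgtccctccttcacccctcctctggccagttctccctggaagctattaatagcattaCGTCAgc
Maff: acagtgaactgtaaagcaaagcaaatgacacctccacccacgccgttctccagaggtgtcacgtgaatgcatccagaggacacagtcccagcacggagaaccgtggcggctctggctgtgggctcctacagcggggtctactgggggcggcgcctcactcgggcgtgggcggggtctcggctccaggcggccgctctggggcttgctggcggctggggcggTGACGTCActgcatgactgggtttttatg
The Fos window held the short form with its first base 129 and 66 bases before the start, and the Atf3 window held it, read on the other strand, 7 bases before the start. In the Jun window the loose pattern lay 45 bases before the start, as TGACATCA. In the Maff window it lay 29 bases before the start, as TGACGTCA, and contains the short form on both strands. RefSeq gave a window for 9 of the 10 genes, all but Fosl1. These 9 genes had 11 windows, 3 of them of Maff. The pattern TGACNTCA was found in 3 of the 11 windows (1 of Jun and 2 of Maff) and in 7.488% of all 32851 promoter windows of this length. Only the second Maff window held it as TGACGTCA, and the Jun window and the third Maff window held TGACATCA. The short form was found in 7 of 11 windows (of Fos, Fosb, Junb, Atf3, Maff and Mafk) and in 17.77% of all windows. Every window shown above held a match to TGACNTCA or the short form, while those of Fosl2, Jund and the first Maff start held neither. The windows shown thus do not stand for all 11. The TRE form of the AP-1 element, TGANTCA, was found in 0 of 11 windows, against 6.749% of all windows. The letters alone do not tell whether TGACATCA is an AP-1 element or a CRE. The CArG box of serum response factor was found in 0 of 11, against 1.467%. A match describes letters and is not a binding site, and the absence of a match concerns these windows only.

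AP-1 transcripts were higher in RIAKI in every branch of the family. Among the 13536 genes with at least 10 counts over the 12 libraries, 9 of the 10 AP-1 genes were tested, and all 9 passed at an adjusted p under 0.05 in the higher direction (edgeR quasi-likelihood test with Benjamini-Hochberg adjustment over all tested genes). None passed as lower. For comparison, 36.3% of all tested genes passed in either direction, 17.4% as higher and 18.8% as lower. In 7 of the 9 genes (Fos, Fosl1, Fosl2, Jun, Junb, Atf3 and Maff) every RIAKI library lay above every control library, which was the case for 8.92% of all tested genes. The median log2 fold change of the 9 genes was 2.96, against -0.01 over all tested genes. The 10th gene, Fosb, had too few counts to be tested. Fos, Fosl1 and Atf3, with 3, 5 and 5 reads in controls, reached the count minimum only through their RIAKI reads. Genes that enter in this way can hardly pass as lower. They therefore add little support to the count of 9, the 7 genes without overlap and the median of 2.96.

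**Figure D1:**
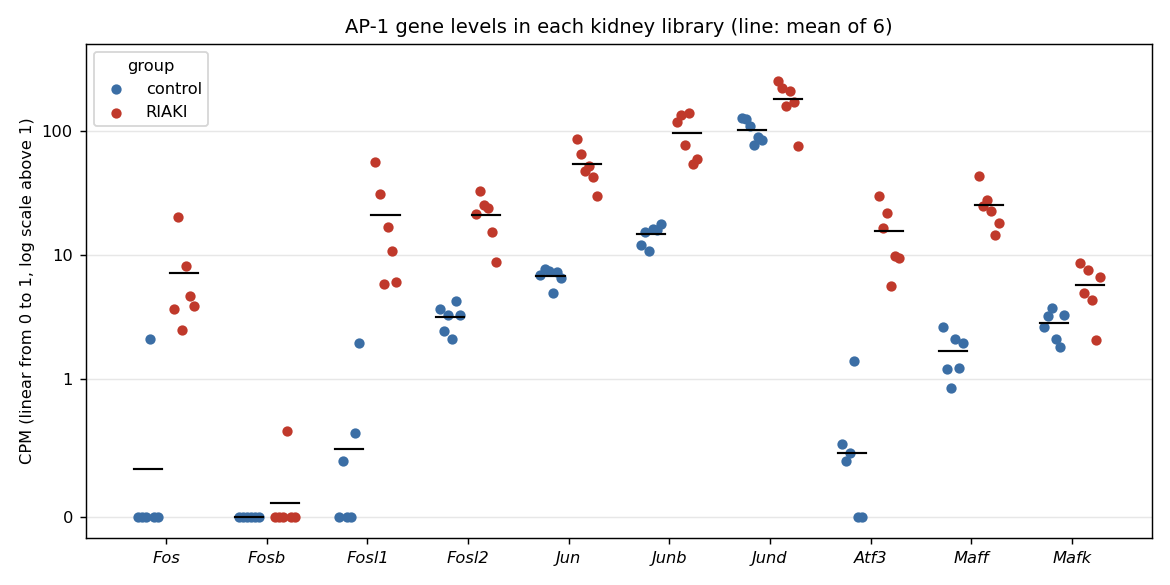
Level of each AP-1 gene in each library, in CPM (vertical axis, linear from 0 to 1 and logarithmic above), for 6 control (blue) and 6 RIAKI (red) kidneys per gene. Points are libraries in the order of their replicate numbers and lines are group means. For Jund and Mafk the groups overlap, and Fosb has 1 library above 0.

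Among the FOS genes, Fos, Fosl1 and Fosl2 rose and Fosb was barely detected. Fos (ENSMUSG00000021250, chromosome 12, 85473890 to 85477273, GRCm38) encodes c-FOS, the classical immediate early protein. In 5 of 6 control libraries it had no read, and control replicate 4 had 3 reads (2.12 CPM). In RIAKI, Fos had 3 to 37 reads per library and a lowest, median and highest level of 2.51, 4.25 and 20.4 CPM. The groups thus did not overlap, but the lowest RIAKI library and the highest control library were close, and RIAKI replicate 2 lay far above the other RIAKI libraries. The fitted log2 fold change was 4.42 (SE 0.73, 95% confidence interval 2.92 to 5.91, adjusted p = 1.5e-05, edgeR). As pooled counts, 78 reads in RIAKI and 3 in controls gave a ratio of 26.6 after scaling, with an exact (Clopper-Pearson) 95% interval of 8.78 to 131.8 that covers counting error only. Without RIAKI replicate 2 the fitted value was 3.76, and without control replicate 4, the only control library with a read, it was 6.77, which is no bound because all remaining controls were at 0.

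Fosb (ENSMUSG00000003545, chromosome 7) encodes the close relative FOSB. It had 0 reads in the 6 controls and 1 read in RIAKI, in replicate 4 (0.62 CPM). A count of 0 over the control group allows a level of up to 0.271 CPM (3 counts over the summed library sizes), and the RIAKI mean of 0.104 ± 0.255 CPM (SD, n = 6) lay below that. This sets an estimate from 1 read against an upper bound, so it does not place the RIAKI group under the limit. No difference was detectable at this depth. Fitted without the count minimum, Fosb had an adjusted p of 0.376 (edgeR).

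Fosl1 (ENSMUSG00000024912, chromosome 19, 5447547 to 5455946) encodes FRA-1, a FOS protein without the C-terminal activation domain of c-FOS that is known for its part in epithelial migration and wound repair. It had the largest fitted fold change of the family, with an interval that overlapped those of Atf3, Fos and Maff. By log2 fold change it ranked 11th of all tested genes, a rank that rests on 5 control reads in all. Controls had 0 to 3 reads (lowest, median and highest level 0, 0.203 and 1.97 CPM), whereas RIAKI libraries had 7 to 138 reads (5.86, 13.8 and 56.2 CPM). The groups did not overlap, and RIAKI libraries differed 9.60-fold among themselves, with replicates 1 and 2 highest. The log2 fold change was 5.42 (SE 0.66, 95% interval 4.06 to 6.77, adjusted p = 9.8e-08, edgeR). It was 4.82 without RIAKI replicate 1 and 6.33 without control replicate 6. Fosl2 (ENSMUSG00000029135, chromosome 5, 32135801 to 32157842) encodes FRA-2, and was the one FOS gene with reads in every control library. Its lowest, median and highest levels were 2.12, 3.28 and 4.27 CPM in controls and 8.83, 22.5 and 32.5 CPM in RIAKI, with a fitted log2 fold change of 2.70 (95% interval 2.11 to 3.30, SE 0.29, adjusted p = 8.8e-09, edgeR). RIAKI replicate 6 was lowest but still 2.07 times the highest control.

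The JUN genes were the most abundant AP-1 transcripts, and they rose by unequal amounts. Jun (ENSMUSG00000052684, chromosome 4, 95049034 to 95052222), a gene of 1 exon whose product c-JUN is the classical partner of FOS and a substrate of JUN N-terminal kinases, had 4.94, 7.09 and 7.72 CPM as its lowest, median and highest control levels and 29.8, 49.8 and 86.4 CPM in RIAKI. The lowest RIAKI library, replicate 6, was at 3.86 times the highest control. The mean rose from 6.82 ± 1.01 to 53.9 ± 19.8 CPM (SD, n = 6 each), a 7.80-fold change (log2 2.96, SE 0.23, 95% interval 2.49 to 3.43, adjusted p = 1.1e-11, edgeR). Junb (ENSMUSG00000052837, chromosome 8, 84974484 to 84978718), whose product is a weaker activator than c-JUN and restrains proliferation in several cell types, had control levels of 10.8, 15.7 and 17.7 CPM (lowest, median and highest) and RIAKI levels of 54.1, 96.6 and 138.7 CPM. Its groups were separated by a factor of 3.05, and the RIAKI libraries fell into 3 at 117 to 139 CPM (replicates 1, 2 and 4) and 3 at 54.1 to 76.2 CPM. The log2 fold change of Junb was 2.73 (SE 0.22, 95% interval 2.27 to 3.19, adjusted p = 3.6e-11, edgeR), so its interval overlapped that of Jun.

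Jund (ENSMUSG00000071076, chromosome 8, 70698949 to 70700616), also of 1 exon, encodes the JUN protein that is present in many resting tissues. It was the most abundant AP-1 transcript in both groups and its fold change had an interval below those of Jun and Junb, which overlapped that of Mafk. Control levels were 77.6, 99.2 and 126 CPM (lowest, median and highest), and RIAKI levels were 75.6, 189.8 and 251 CPM. Of the 6 RIAKI libraries, 5 lay above all controls, while replicate 6 at 75.6 CPM lay below all of them. The mean rose from 102 ± 20.9 to 181 ± 61.8 CPM (SD, n = 6 each), a 1.78-fold change (log2 0.83, SE 0.20, 95% interval 0.43 to 1.23, adjusted p = 0.00117, edgeR). Without RIAKI replicate 6 the log2 fold change of Jund was 0.99, and that of Mafk 0.92.

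Atf3 (ENSMUSG00000026628, chromosome 1, 191170296 to 191218039) encodes a stress-induced member of the ATF/CREB family that pairs with JUN proteins and represses transcription as a homodimer. Controls had 0 to 2 reads per library, with a lowest, median and highest level of 0, 0.437 and 1.41 CPM. RIAKI libraries had 9 to 73 reads and 5.62, 13.2 and 29.8 CPM, without overlap. Replicate 1 was highest, and replicate 4, which was highest for Junb, was lowest for Atf3. The log2 fold change was 4.92 (SE 0.51, 95% interval 3.87 to 5.97, adjusted p = 5.2e-09, edgeR). Of the Atf3 reads, 27 in RIAKI and 0 in controls crossed an exon junction, which marks them as spliced transcripts.

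Both small MAF genes passed the test, with intervals of the fold change that did not overlap. Maff (ENSMUSG00000042622, chromosome 15, 79346621 to 79359076) had 0.937, 1.60 and 2.64 CPM in controls (lowest, median and highest) and 14.4, 23.6 and 43.2 CPM in RIAKI. Its groups were the most widely separated of the family, with the lowest RIAKI library at 5.47 times the highest control. The log2 fold change was 3.90 (SE 0.32, 95% interval 3.25 to 4.56, adjusted p = 3.5e-11, edgeR). Mafk (ENSMUSG00000018143, chromosome 5, 139791513 to 139802653), which encodes a paralog with the same partners, had 1.83, 2.94 and 3.75 CPM in controls and 2.06, 5.79 and 8.56 CPM in RIAKI. The groups overlapped through RIAKI replicate 5, the lowest at 4 reads, and the other 5 RIAKI libraries lay above all controls. Its log2 fold change was 0.97 (SE 0.34, 95% interval 0.27 to 1.68, adjusted p = 0.0270, edgeR). This call rested on single libraries: the adjusted p was 0.0922 without RIAKI replicate 1, 0.0526 without RIAKI replicate 3, 0.0502 without RIAKI replicate 6 and 0.0560 without control replicate 5, and it was 0.0549 with DESeq2 and 0.0738 with limma voom.

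**Figure D2:**
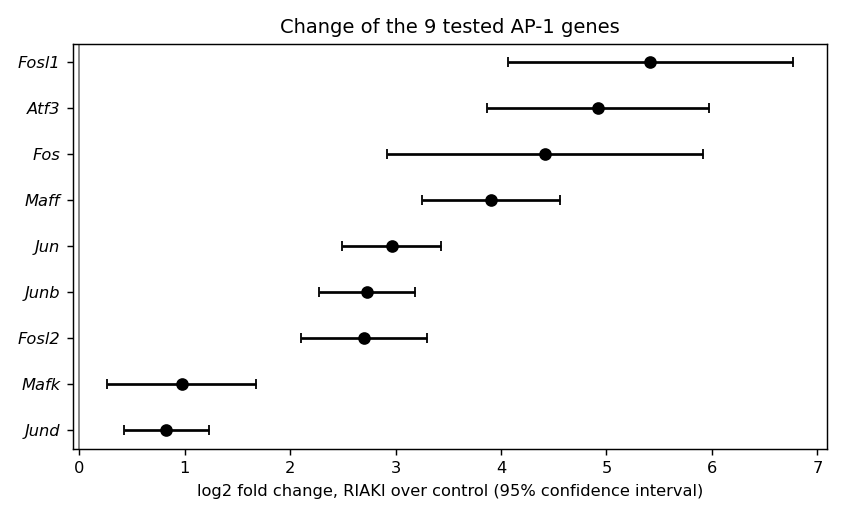
Log2 fold change of RIAKI over control (horizontal axis) for the 9 tested AP-1 genes, with 95% confidence intervals from the edgeR fit (6 libraries per group) as bars. Fosl1, Atf3, Fos and Maff lie highest, and Mafk (0.97) and Jund (0.83) lowest, with all intervals above 0.

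The order of the genes by level could be compared within libraries, because each transcript gives 1 tagged read at its 3′ end and no gene length enters, although capture may differ between genes. In controls the order was Jund, Junb, Jun and Fosl2, with each gene above the next in 6 of 6 libraries and no overlap of their ranges. From Fosl2 down the ranges of neighbors overlapped. Fosl2 was above Mafk in 2 of 6 libraries and level with it in control replicates 4 and 6. Mafk was above Maff in 4 of 6 and level with it in control replicates 1 and 4. Fosl1, Atf3 and Fos all had libraries at 0. In RIAKI the first 3 places were the same, again in 6 of 6 libraries for each step. Maff took the fourth place, below Jun in 6 of 6 libraries, and was above Fosl2 in 3 of 6. Fosl2 and Fosl1 had nearly equal means (21.14 and 21.12 CPM), with Fosl2 higher in 5 of 6 libraries, and Atf3 was above Mafk in 6 of 6 libraries. Fos was below Fosl2 and Fosl1 in 6 of 6 libraries, but below Atf3 in 4 of 6 and above Mafk in 3 of 6.

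Because the genes rose by unequal amounts, the make-up of the AP-1 transcript pool differed between the groups. Their summed level was 109 to 156 CPM in controls and 218 to 618 CPM in RIAKI. Jund made up 70.9% to 81.6% of the counts of the 10 genes in controls and 34.7% to 52.8% in RIAKI, without overlap. Junb went from 7.85%–14.9% to 16.6%–28.9%, Jun from 4.44%–6.06% to 10.8%–14.0% and Maff from 0.692%–1.95% to 4.43%–8.35%, also without overlap. The shares of the other genes overlapped between the groups. Mafk had 1.52% to 2.77% in controls and 0.633% to 3.04% in RIAKI, and for Fos, Fosl1, Fosl2 and Atf3 the lowest RIAKI share lay below the highest control share. Within the JUN branch Jund held 77.7% to 86.9% of the counts in controls and 45.8% to 64.1% in RIAKI. The 4 FOS genes held 1.89% to 4.60% of the FOS and JUN counts in controls and 10.2% to 16.5% in RIAKI, so that JUN transcripts outnumbered FOS transcripts in every library. These shares come from the same counts as the fold changes and were given no test of their own.

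**Figure D3:**
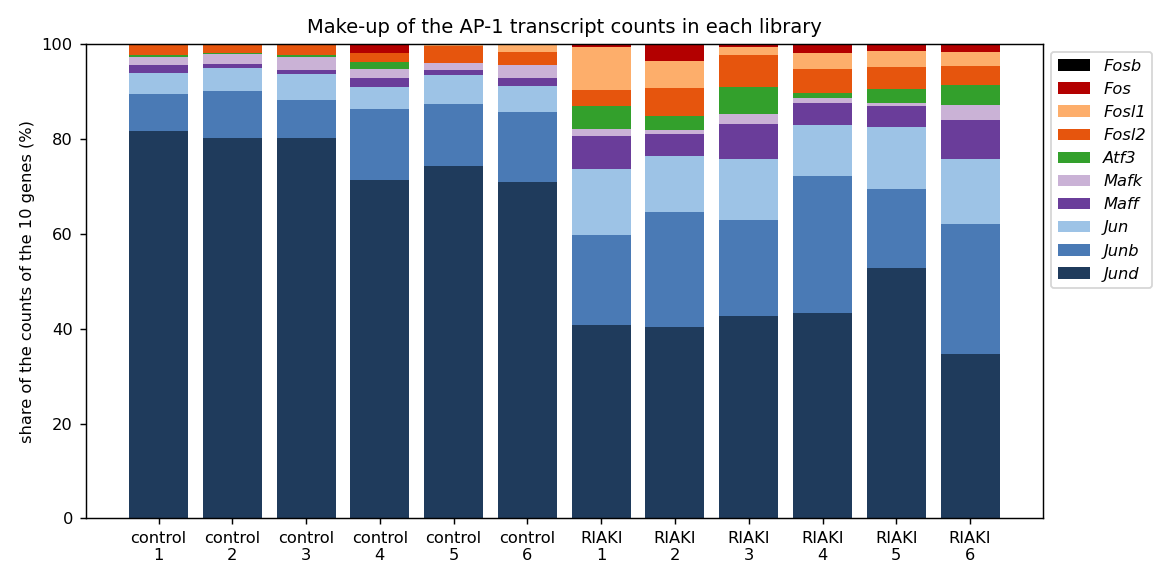
Share of each AP-1 gene (stacked bars, percent of the counts of the 10 genes) in each of the 6 control and 6 RIAKI libraries. The Jund part covers 70.9% to 81.6% of each control bar and 34.7% to 52.8% of each RIAKI bar, and the parts of Junb, Jun and Maff are larger in every RIAKI bar than in any control bar.

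Ratios of 2 genes within a library do not depend on the scaling between libraries. The ratio of Jun to Jund counts had a lowest, median and highest value of 0.0544, 0.0663 and 0.0816 in controls and of 0.246, 0.297 and 0.394 in RIAKI. The ratio of Junb to Jund was 0.0962, 0.150 and 0.209 in controls and 0.314, 0.541 and 0.788 in RIAKI. Both ratios separated the groups, including RIAKI replicate 6, whose Jund level was below all controls and whose ratios were the highest of all libraries. The ratio of Junb to Jun overlapped between the groups, at 1.44 to 3.29 in controls and 1.28 to 2.67 in RIAKI.

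**Figure D4:**
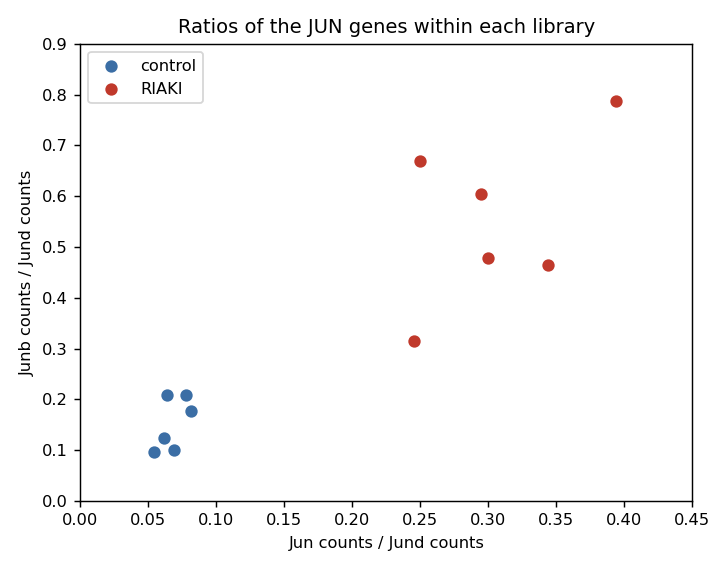
Ratio of Junb to Jund counts (vertical axis) against the ratio of Jun to Jund counts (horizontal axis) in each control (blue) and RIAKI (red) library. The 6 control libraries lie at or below 0.0816 on the horizontal and 0.209 on the vertical axis, and all 6 RIAKI libraries lie above both values.

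The RIAKI kidneys differed from one another in their AP-1 levels. Replicate 1 was the highest of the 6 for 6 of the 9 genes that passed (Fosl1, Jun, Jund, Atf3, Maff and Mafk), replicate 2 for 2 (Fos and Fosl2) and replicate 4 for 1 (Junb). Replicates 5 and 6 were the lowest for 3 genes each, replicate 3 for 2 and replicate 4 for 1. The spread was widest for Fos and Fosl1, with coefficients of variation of 93.6% and 92.6%, and was 34.1% to 41.6% for Jund, Jun, Fosl2, Junb, Maff and Mafk and 58.6% for Atf3. The genes did not all follow 1 order, since RIAKI replicate 1 was highest for Fosl1 but had less Fos (3.67 CPM) than the group mean (7.20 CPM). RIAKI replicate 1 was also the library with the highest share of intron reads and the most genes with a count, whose part in these levels was not tested. Leaving it out kept all calls except that of Mafk.

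**Figure D5:**
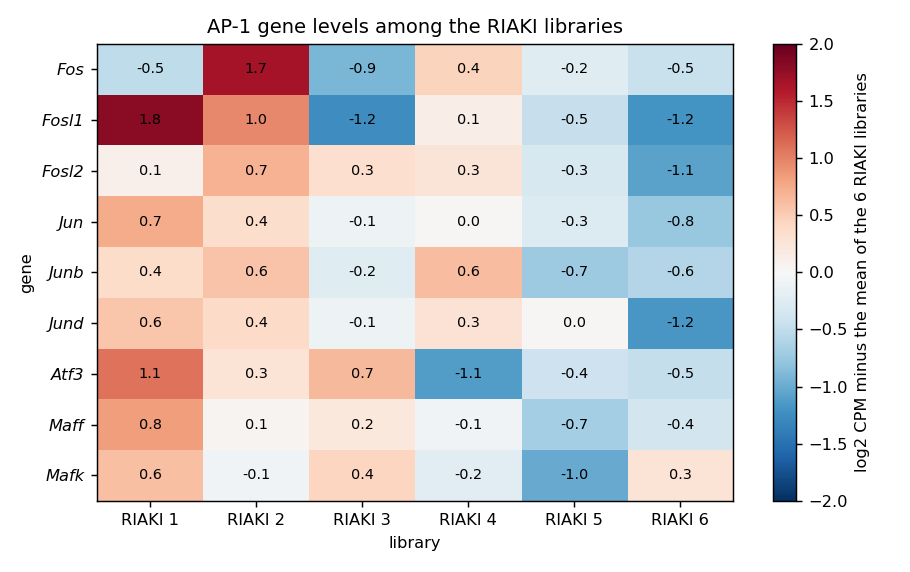
Deviation of each AP-1 gene from its own mean over the 6 RIAKI libraries (color and printed values, log2 CPM) for the 9 genes tested. Replicate 1 is above the mean for 8 genes and below it for Fos, and replicate 6 is below it for all genes but Mafk.

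Several AP-1 genes share bases with a gene on the opposite strand, and whether the counting used strand is not given in the sources used here, so reads from the shared bases cannot be assigned with certainty. Fosl1 shares 1163 exon bases, including its 3′ end, with Ccdc85b, which had 93 reads in controls and 96 in RIAKI (log2 fold change 0.08, adjusted p = 0.848, edgeR). Intron reads of Fosl1 numbered 17 in controls, more than its 5 exon reads there, and 39 in RIAKI, against 260 exon reads. Exons of Ccdc85b cover 1604 bases of the Fosl1 introns. Junb shares 173 exon bases, also including its 3′ end, with Prdx2, a peroxidase gene. Prdx2 had 1672 reads in controls and 1379 in RIAKI (log2 fold change -0.23, adjusted p = 0.225, edgeR), beside 160 and 1057 of Junb. Mafk shares 169 exon bases, again including its 3′ end, with Tmem184a, which changed the other way, from 65 to 14 reads (log2 fold change -2.12, adjusted p = 0.000231, edgeR). Because reads come from 3′ ends, these short overlaps may hold many of the reads of Fosl1, Junb and Mafk. The antisense partners of Jun (Junos, 5 and 6 reads) and Jund (Gm11175, 10 and 15 reads) had few reads. All exon reads of the 10 AP-1 genes had mapped to a single place, and introns held 0 to 7 reads per group for the genes other than Fosl1.

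Other bZIP genes, which encode further partners of AP-1 proteins, changed in part. Of 28 listed genes, 27 were found and 22 tested, of which 10 rose, 1 fell and 11 did not pass, with a median log2 fold change of 0.39. Cebpd and Cebpb, which encode acute-phase C/EBP factors, rose from 6.82 ± 1.51 to 46.8 ± 8.56 CPM and from 41.5 ± 4.82 to 177.9 ± 36.1 CPM (SD, n = 6 each; log2 fold change 2.75 and 2.09, adjusted p = 9.2e-13 and 4.0e-12, edgeR). Crem, a cAMP-responsive factor, and Atf4, the effector of the integrated stress response, rose by log2 fold changes of 2.22 (SE 0.20) and 1.76 (SE 0.18). Maf, a large MAF gene, fell from 291 ± 41.6 to 71.4 ± 12.9 CPM (log2 fold change -2.03, SE 0.15, adjusted p = 4.5e-12, edgeR), opposite to Maff and Mafk.

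The products of MAP kinase genes phosphorylate JUN, FOS and ATF proteins or induce their genes. Counted in either direction, these kinase genes passed the test about as often as all tested genes. All 27 were found and 26 tested, of which 7 rose, 2 fell and 17 did not pass, with a median log2 fold change of 0.35. The 9 that passed are a share close to the 36.3% of all tested genes that passed in either direction. More of them rose than fell, whereas of all tested genes 17.4% passed as higher and 18.8% as lower. Those with the smallest p that rose were Mapkapk2 (1.09, SE 0.18), Map4k4 (0.95, SE 0.24), Map2k3 (0.85, SE 0.23) and Rps6ka3 (1.16, SE 0.31), in log2 fold change. Map2k6, an activator of p38, fell by 2.13 on the log2 scale (SE 0.47), and Map3k5, which encodes ASK1, fell by 0.67 (SE 0.21).

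Immediate early genes outside AP-1 also rose. Of 21 listed, 19 were found and 16 tested, of which 14 rose, 0 fell and 2 did not pass, with a median log2 fold change of 1.67. Myc, a growth regulator, rose from 2.19 ± 1.09 to 21.5 ± 9.37 CPM (log2 fold change 3.31, SE 0.33, adjusted p = 2.3e-09, edgeR). Btg2, an antiproliferative gene, rose from 6.47 ± 1.26 to 42.0 ± 9.68 CPM (2.70, SE 0.20, adjusted p = 4.0e-12). Gadd45a, a DNA damage response gene, and Btg1 rose by 2.07 (SE 0.22) and 1.26 (SE 0.15) in log2 fold change. For all 4 genes the groups did not overlap, as for 8.92% of all tested genes with RIAKI above control. These 4 were named for the smallest p in the list, which favors such a gap.

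Genes that AP-1 is known to act on in other tissues changed in both directions, mostly upward. Of 30 listed and found, 25 were tested, of which 16 rose, 3 fell and 6 did not pass. The median log2 fold change was 2.28, and 1.98 when 3 genes at 0 in all controls were set to the lowest change that the depth allows. Plaur, the receptor of urokinase, rose from 7.02 ± 1.66 to 113 ± 38.5 CPM (log2 fold change 3.98, SE 0.22, adjusted p = 7.6e-15, edgeR), and Timp1, an inhibitor of metalloproteinases, from 1.53 ± 1.19 to 32.9 ± 5.26 CPM (4.45, SE 0.30, adjusted p = 5.8e-13). Krt18, an epithelial keratin, and Hbegf, an EGF receptor ligand, rose by 2.28 (SE 0.19) and 1.98 (SE 0.22). The genes that fell were Vegfa (-0.65, SE 0.17), Ccnd1 (-0.48, SE 0.16) and Itgb6 (-0.41, SE 0.15). Ccnd1 encodes cyclin D1.

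Targets of NRF2 and its small MAF partners rose almost throughout. Of 19 listed, all were tested, of which 17 rose, 1 fell and 1 did not pass, with a median log2 fold change of 1.28. Hmox1, heme oxygenase 1, rose from 6.49 ± 0.737 to 135 ± 71.6 CPM (log2 fold change 4.39, SE 0.29, adjusted p = 3.3e-13, edgeR). Srxn1, sulfiredoxin, rose from 23.8 ± 3.71 to 309 ± 155.8 CPM (3.71, SE 0.25, adjusted p = 5.1e-13), and Txnrd1 and Pgd by 2.41 (SE 0.18) and 1.94 (SE 0.19). Me1, malic enzyme, fell from 58.2 ± 12.3 to 35.7 ± 9.15 CPM (-0.70, SE 0.17, adjusted p = 0.00184). For each of these lists the same counts over all tested genes, 17.4% higher and 18.8% lower with a median of -0.01, are the comparison, and no test of a list was made. Some listed genes with few or no control reads likewise reached the count minimum only through their RIAKI reads.

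The genes whose pattern over the 12 libraries was most like that of the most abundant AP-1 genes were found among 7732 genes with at least 100 counts, by the root mean square difference of log2 CPM after each gene's own mean was subtracted. For Jund these were Arhgdia (0.20), Smtn (0.23) and Iqgap1 (0.25), against a median of 0.71 over all eligible genes. For Junb they were Eif6 (0.33), Btg2 (0.34) and Vat1 (0.34), against a median of 1.38. The points share their libraries and their group difference, and the values are a description.

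Markers of other cells changed in part, beside 17.4% of all tested genes higher and 18.8% lower. Of 12 leukocyte markers, 7 were tested, of which 5 were higher in RIAKI (S100a8, S100a9, Cd68, Lyz2 and Itgam), 1 lower (Csf1r) and 1 did not pass (Ptprc). Their summed level was 13.7 to 24.9 CPM in controls and 39.1 to 83.9 CPM in RIAKI, and Ly6g and Mpo were at 0 in all libraries. Adgre1, Cd3e and Cd79a had too few reads to be tested. In RIAKI replicates 1 to 6 the leukocyte sums were 63.2, 39.1, 60.3, 79.4, 48.9 and 83.9 CPM, beside summed AP-1 levels of 618, 553, 373, 480, 326 and 218 CPM in the same order. Endothelial and stromal markers summed to 80.1 to 108 CPM in controls and 92.9 to 151 CPM in RIAKI. Of these 8 markers, 3 were higher (Col1a1, Col3a1 and Acta2), 5 did not pass and none was at 0. Skeletal muscle markers were at 0 in all libraries for 4 of 6 genes and summed to 2.12 to 4.27 CPM in controls and 0.515 to 2.76 CPM in RIAKI. Of 5 red blood cell markers 4 were lower in RIAKI and none was at 0, with sums of 2496 to 5136 CPM in controls and 982 to 4439 CPM in RIAKI. The sums of the endothelial and stromal, muscle and red blood cell markers overlapped between the groups. The part of these cells in the AP-1 levels was not tested.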

How the data were processed

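RNA of whole mouse kidneys was sequenced from 6 RIAKI and 6 control mice, with groups and replicate numbers from the labels, where no batch is named. The study describes 10 mice per group and does not say which were sequenced. The authors prepared 3′ libraries with unique molecular indices (QIAseq UPX), deduplicated and mapped the reads to GRCm38 in CLC Genomics Workbench and deposited counts per Ensembl gene, whole numbers that are not normalized. From these exon counts, the 13536 genes whose counts summed to at least 10 were kept, and the groups were compared in edgeR 4.0.16 (R 4.3.3) by its quasi-likelihood test after TMM scaling, and p-values were adjusted by Benjamini-Hochberg and called under 0.05. The p-values measure the spread between these libraries. Alternatives were edgeR's exact test, DESeq2 1.42.0, voom in limma 3.58.1, other scalings and filters, reads mapped to a single place, the replicate number as a block and leaving out each library in turn. The code was tested on simulated counts. Genes that overlap were taken from GENCODE M21 and promoter windows from RefSeq.

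The AP-1 genes and the 5 gene lists, written by hand, were chosen with earlier results of these data known, so they are no independent evidence. All AP-1 genes are named. In each list up to 4 genes that passed in the main direction and up to 2 in the other were named by smallest p. The names Itgb6, Ptprc, Itgam, Adgre1, Cd3e and Cd79a were added after their values were seen, as the last members of small counts. Kap was also named afterward, for its part in the sum of the kidney markers. Genes most like a member were sought for the 2 members with the most counts in RIAKI (prior count 2).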

Additional observations from a re-analysis of the deposited data

Results flagged for a closer look

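A library was marked where its gap to the nearest library of its group, divided by the range of the group, exceeded Dixon's 95% value for 6 samples (0.625). Of 19 groups tested, chance would mark about 5% where values are continuous, a rate that does not apply to groups with few reads: a group with 1 library above 0 is always marked. In RIAKI, Fos was 20.4 CPM in replicate 2 while the other 5 libraries held 2.51 to 8.12 CPM. Fosb was 0.625 CPM in RIAKI replicate 4, from 1 read, with the others at 0. In controls, Fos was 2.12 CPM in replicate 4 with the others at 0, Atf3 was 1.41 CPM in the same library with the others at 0 to 0.528 CPM, and Fosl1 was 1.97 CPM in replicate 6 with the others at 0 to 0.610 CPM. The marked control values rest on 2 or 3 reads each. The cause was not tested.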

How the results depend on the processing

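Under 22 alternatives, 8 of the 9 tested AP-1 genes kept their direction and passed wherever they were tested, and Mafk kept its direction (log2 fold change 0.80 to 1.16) and passed in 15 of 21. The number of AP-1 genes called was 8 or 9 in all of them except under edgeR's filterByExpr, which tests 7013 genes and leaves out Fos, Fosl1, Atf3 and Mafk. There it was 5, with 9 other immediate early genes (main value 14) and 8 AP-1 target genes (main value 19). Without single libraries, the called AP-1 genes numbered 8 to 9 and all called genes 4476 to 4701, against 4908. With total counts alone as the scaling, 4128 genes passed. The replicate block gave 4961 called genes and changed no call of an AP-1 gene. Deviations of libraries with the same number correlated at -0.24 to 0.37 over 4874 genes, and 1 of 6 RIAKI libraries matched its own number best. This showed no clear pairing by number but cannot exclude one with a weak shared effect, and the labels name no pairs. The log2 fold change of Jund ran from 0.74 to 0.99, of Jun from 2.80 to 3.09, of Junb from 2.60 to 2.86, of Fosl2 from 2.53 to 2.86, of Maff from 3.68 to 4.09 and of Atf3 from 4.47 to 5.38. Fos (3.76 to 6.77) and Fosl1 (4.82 to 6.33) moved most, with 3 and 5 control reads in all. Depth limits Fosb, Fos, Fosl1 and Atf3 in controls, where a library without a read still allows 1.22 to 2.12 CPM.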
